A study of Homo sapiens with 6 samples.

Results

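The histone genes of RPE1 cells were described with and without depletion of OFD1. The deposited table lists 67130 genes, and 78 of them are the histone genes taken here: protein-coding genes on the primary assembly whose symbols begin with H1-, H2AC, H2BC, H3C, H4C, H2AX, H2AZ, H2AJ, H3-3, MACROH2A or HIST. By their symbols, 66 of the 78 were counted as replication-dependent (H1-1 to H1-6 and the numbered H2AC, H2BC, H3C and H4C genes) and 12 as variants (among them H1-7, H1-8, H1-10, H2AX, H2AZ1, H2AZ2, H2AJ, H3-3A, H3-3B, MACROH2A1 and MACROH2A2). No value of these data entered the rule. Of the replication-dependent genes, 55 lie on chromosome 6 and 11 on chromosome 1, while the 12 variants are spread over 10 chromosomes.

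Histones package DNA, and the bulk of them is made during S phase, when the replication-dependent genes are switched on together. Their mRNAs have no introns and, in place of a poly(A) tail, end in a short stem-loop that is bound by SLBP and destroyed when DNA synthesis stops, although several of these genes can also give transcripts with a poly(A) tail. Variant histones are encoded by scattered genes, many of them spliced, with polyadenylated mRNAs, and are made outside S phase too. Several replace the bulk histones at particular places: H2A.Z and H3.3 at promoters, macroH2A in silent chromatin and CENP-A at centromeres.

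The samples were hTERT-RPE1-TOShOFD1 cells, a line of immortalised human retinal pigment epithelial cells (hTERT-RPE1, labelled wild type) that carries a lentiviral Tet-On cassette for an shRNA against OFD1, a protein of centrioles and centriolar satellites. The 3 control samples had no doxycycline (DOX) and are labelled 72 hours too. The 3 OFD1-depleted samples had 200 ng/mL DOX for 72 hours. Every group carries the cassette, and no sample had DOX without this hairpin, so an effect of the hairpin and one of DOX cannot be told apart. RNA was measured by paired-end sequencing and is given as FPKM, a fragment count scaled to the length of the gene model and to the size of the library, so levels of different genes were compared per length.

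OFD1 itself was at 3.34, 3.62 and 3.44 FPKM in control samples 1 to 3 and at 0.795, 0.763 and 1.43 FPKM in OFD1-depleted samples 1 to 3. It was lower in all 3 OFD1-depleted samples (log2 fold change -1.75, SE 0.255, adjusted p = 8.50e-04 by limma with Benjamini-Hochberg adjustment over all genes tested). Depth, estimated only roughly from the spacing of low values, was 37600000 to 44100000 fragments per sample, and the FPKM of all genes summed to 408302 to 414547 in the controls and 433262 to 493510 in the OFD1-depleted samples. Some labels name the tissue retina, but of 6 neural retina markers none reached 1 FPKM and 4 were at 0 in all samples. Of 10 markers of the retinal pigment epithelium, 2 reached 1 FPKM (MITF and OTX2). Of 4 markers of epithelium and mesenchyme, 3 reached it (keratins 8 and 18 and vimentin), while the epithelial cadherin CDH1 had a mean of 0.0197 FPKM. The study's legend to its heatmap of these data calls the columns biological replicates, and the labels do not say whether they were separate cultures, so p-values measure the spread between these samples.

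The stem-loop was looked for in the genome because it is the feature that sets the replication-dependent genes apart. A match was a stem of 6 base pairs that starts with GG, closed by a 4-base loop whose first 3 bases are pyrimidines. The 150 bases after the stop codon of each gene's canonical GENCODE 44 transcript on GRCh38 were searched, and no other transcripts. A match was found in 64 of the 66 replication-dependent genes (97.0%) and in 1 of the 12 variants (8.33%). Over all protein-coding genes, these histone genes included, it was found in 90 of 20046 (0.449%). The variant with a stem-loop was H2AX, and the replication-dependent genes without a match were H2AC11 and H2AC15. The stem-loop began 22 to 67 bases after the stop codon, with a median of 35, and took 8 distinct forms. In all 14 H4 genes the stem read GGCCC on its 5′ side, and in all other replication-dependent genes with a match it read GGCTC. The stem-loops of the genes on which the results turn are shown here, in transcript orientation, with the 16 bases of stem and loop in capitals and 5 bases of flank on each side. The coordinates are those of the capitals.
H2BC12, chr6:27146366-27146381, minus strand: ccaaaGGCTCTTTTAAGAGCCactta
H1-2, chr6:26055744-26055759, minus strand: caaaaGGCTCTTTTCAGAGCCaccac
H2AC6, chr6:26124669-26124684, plus strand: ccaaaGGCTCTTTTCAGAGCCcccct
H2BC4, chr6:26123472-26123487, minus strand: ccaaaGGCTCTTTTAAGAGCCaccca
H2BC21, chr1:149886188-149886203, minus strand: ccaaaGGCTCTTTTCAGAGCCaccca
H3C10, chr6:27810516-27810531, plus strand: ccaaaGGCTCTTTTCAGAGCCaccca
H4C9, chr6:27139654-27139669, plus strand: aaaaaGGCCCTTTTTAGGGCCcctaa
H2AX, chr11:119094898-119094913, minus strand: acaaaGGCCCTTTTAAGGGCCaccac
The stem of H2AX was the one of the H4 genes, with a loop (TTTA) that no H4 gene had and that some H1, H2A, H2B and H3 genes did.

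The levels of the classes differed before any comparison between groups. Over the 6 samples, the median replication-dependent gene had a mean of 0.124 FPKM and the median variant 52.8 FPKM. Of the 66 replication-dependent genes, 13 were at 0 in all samples, 43 were above 0 but had a mean under 1 FPKM, and 10 passed the filter for the test, a mean of 1 FPKM or more. Those 10 were 1 of 6 H1 genes (H1-2), 3 of 16 H2A genes (H2AC6, H2AC18 and H2AC19), 4 of 17 H2B genes (H2BC4, H2BC11, H2BC12 and H2BC21), 1 of 13 H3 genes (H3C10) and 1 of 14 H4 genes (H4C9). Of the 12 variants, 8 were tested, 3 were under the filter (MACROH2A2 and H1-7 among them) and H1-8, the linker histone of oocytes, was at 0 in all samples. The sources used here do not say whether the libraries were made from poly(A) RNA or from total RNA without rRNA, so the low level of most replication-dependent genes and the way the libraries were made cannot be told apart.

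Among the 8 variants tested, 5 fell and none rose past the test in the OFD1-depleted samples: H2AX, H1-10, H2AZ1, H2AZ2 and H3-3B. All 5 had groups that did not overlap. The background over all 12025 genes tested was 11.9% called lower and 5.07% called higher, and 22.3% had groups apart with lower and 13.8% with higher values in the OFD1-depleted samples. The median log2 fold change was -0.49 for the 8 variants and -0.03 for all genes tested. Without the filter, when 28501 genes were tested, H2AX and H2AZ2 still passed, while H2AZ1, H1-10 and H3-3B did not (adjusted p = 0.0621, 0.0602 and 0.0908 by limma), and without control sample 1 or control sample 3 the variants called lower were 3. In bulk RNA, fewer cells with the transcript and less transcript per cell cannot be told apart.

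H2AX (ENSG00000188486, chr11:119093854-119095467), whose product is phosphorylated at DNA double-strand breaks, had the largest change of any histone gene tested. It was at 140, 167 and 148 FPKM in control samples 1 to 3 and at 22.8, 30.0 and 23.1 FPKM in OFD1-depleted samples 1 to 3. The highest OFD1-depleted sample was far under the lowest control, and the mean was 5.99 times lower. The log2 fold change was -2.59 (SE 0.144, adjusted p = 5.03e-06 by limma), and it passed the test in all 18 alternative analyses.

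Both H2A.Z genes fell. H2AZ1 (ENSG00000164032, chr4:99948086-99950355), the most abundant histone mRNA per length in the controls, was at 321, 369 and 321 FPKM in the controls and at 221, 243 and 201 FPKM after depletion (log2 fold change -0.61, SE 0.136, adjusted p = 0.0107 by limma). H2AZ2 (ENSG00000105968), which encodes a near-identical protein, was at 43.6, 45.2 and 42.0 FPKM in the controls and at 33.2, 28.0 and 30.2 FPKM after depletion (log2 fold change -0.52, SE 0.123, adjusted p = 0.0147 by limma). All OFD1-depleted samples were under all controls for both genes, which kept 65.7% and 69.9% of their control means. H2AZ2P1, a processed pseudogene copy of H2AZ2, was chosen after its values were seen and stood at 1.45 to 1.99 FPKM in the controls and 0.852 to 0.975 FPKM after depletion. The call of H2AZ2 was lost without control sample 1 (adjusted p = 0.0742) or control sample 3 (adjusted p = 0.0522 by limma). How reads shared by the copies were divided is not given in the sources used here.

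H1-10 (ENSG00000184897, chr3:129314771-129316286), which encodes the linker histone H1x, was at 82.6, 87.3 and 93.3 FPKM in the controls and at 43.8, 61.3 and 36.5 FPKM after depletion. OFD1-depleted sample 2 was the nearest to the controls, but still under all of them (log2 fold change -0.92, SE 0.176, adjusted p = 0.00447 by limma). The antisense RNA H1-10-AS1 overlaps 895 bases of H1-10 on the other strand and had a mean of 0.661 FPKM. It is named because of that overlap. The methods name a directional library kit, which keeps the strand, but the strand setting of the counting is not given in the sources used here, so whether the reads of this pair were separated is not known.

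The H3.3 genes, which encode the same protein, gave different calls. H3-3B (ENSG00000132475) was at 111, 134 and 111 FPKM in the controls and at 90.5, 88.3 and 78.1 FPKM after depletion, with groups that did not overlap (log2 fold change -0.47, SE 0.132, adjusted p = 0.0325 by limma). This call was the least stable of the variants: it passed in 11 of 18 alternatives and was lost when any control or OFD1-depleted sample other than OFD1-depleted sample 2 was left out, with adjusted p up to 0.0992. H3-3A (ENSG00000163041) was at 199, 244 and 193 FPKM in the controls and at 223, 254 and 199 FPKM after depletion, with groups that overlapped (log2 fold change 0.09, SE 0.148, adjusted p = 0.728 by limma), and scaled to equal FPKM totals its log2 fold change was -0.06. The difference between the changes of these genes was not tested. H3-3B also overlaps UNK, a protein-coding gene on the other strand with a mean of 10.0 FPKM, over 1088 bases. Whether the reads of H3-3B and UNK were separated is not known. The processed H3.3 pseudogene H3P6, chosen after its values were seen, was at 10.8 to 14.3 FPKM in the controls and 13.2 to 15.6 FPKM after depletion, and can share reads with its parent.

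The remaining abundant variants did not pass the test. MACROH2A1 (ENSG00000113648), a variant with a large globular tail domain, was at 67.7, 76.3 and 75.0 FPKM in the controls and at 72.0, 72.6 and 66.8 FPKM after depletion (log2 fold change -0.05, SE 0.120, adjusted p = 0.815 by limma). H2AJ (ENSG00000246705), an H2A variant that accumulates in senescent cells, was at 35.2, 41.0 and 33.7 FPKM in the controls and at 35.8, 58.4 and 25.0 FPKM after depletion (log2 fold change 0.04, SE 0.246, adjusted p = 0.938 by limma). For H2AJ the highest and the lowest of the 6 samples were both OFD1-depleted samples. Under the filter, MACROH2A2 had a mean of 0.508 FPKM with overlapping groups, and H1-7, a linker histone of spermatids, was above 0 only in OFD1-depleted sample 1, at 0.136 FPKM.

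**Figure D1:**
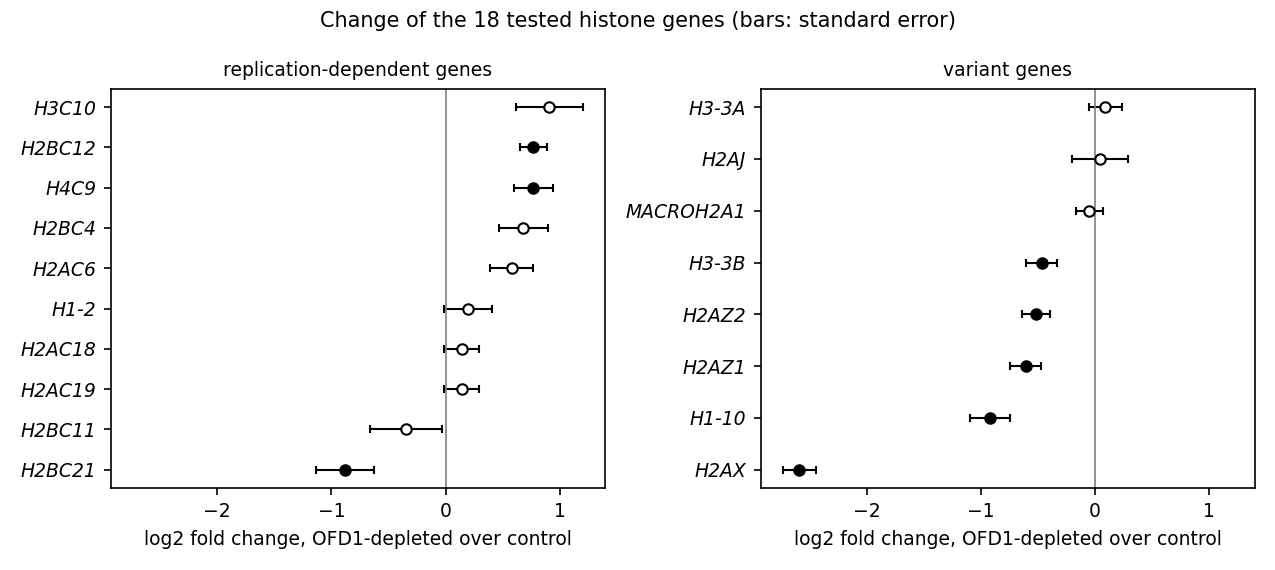
Log2 fold change of the 18 tested histone genes, OFD1-depleted over control, on the log2(FPKM + 0.1) scale, with bars for the standard error and filled points for an adjusted p under 0.05. The 3 filled replication-dependent genes are H2BC12 and H4C9 to the right and H2BC21 to the left, and all 5 filled variants lie to the left.

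Of the 10 replication-dependent genes tested, 2 rose (H2BC12 and H4C9), 1 fell (H2BC21) and 7 did not pass the test. The groups did not overlap in 6 of them, 5 with higher and 1 with lower values in the OFD1-depleted samples. Over all genes tested, 5.07% were called higher and 11.9% lower, and 13.8% had groups apart with higher and 22.3% with lower values. The median log2 fold change of the 10 replication-dependent genes was 0.39. It was 0.22, 0.66 and 0.28 for OFD1-depleted samples 1 to 3 each taken against the control mean, where the variants gave -0.39, -0.45 and -0.57. The median of 0.39 covers only the 10 genes that passed the filter, and over the 53 replication-dependent genes above 0 in any sample it was -0.17. Of the 10, H3C10 passed the filter only through the OFD1-depleted group and H2BC11 only through the controls, so the counts and the median describe these genes and are not support for a direction. Without both, a choice made after seeing the data, the median of the other 8 was 0.39, and 4 had groups apart with higher and 1 with lower values. H2AX was counted among the variants by name, and counted as replication-dependent it made the second gene of that class that fell.

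H2BC12 (ENSG00000197903, chr6:27146361-27146855), which encodes an H2B of the large chromosome 6 cluster, was the most abundant replication-dependent gene. It was at 33.0, 34.1 and 30.8 FPKM in control samples 1 to 3 and at 56.9, 56.2 and 53.5 FPKM in OFD1-depleted samples 1 to 3, which corresponds to roughly 599 to 634 and 1100 to 1228 fragments per sample. The spread within each group was small beside the gap between them, and the mean was 1.70 times higher after depletion. The log2 fold change was 0.77 (SE 0.118, adjusted p = 0.00120 by limma), and it passed in all 18 alternatives.

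H4C9 (ENSG00000276180, chr6:27138588-27139881), an H4 gene, was at 2.76, 2.35 and 2.48 FPKM in the controls and at 4.33, 4.91 and 3.95 FPKM after depletion. All OFD1-depleted samples were above all controls (log2 fold change 0.77, SE 0.169, adjusted p = 0.00974 by limma), and the call held in all 17 alternatives that tested the gene. H2BC21 (ENSG00000184678, chr1:149884459-149886652), an H2B gene of the chromosome 1 cluster, went the other way, at 1.72, 2.42 and 1.92 FPKM in the controls and 1.27, 0.864 and 1.02 FPKM after depletion. Its groups did not overlap either (log2 fold change -0.88, SE 0.254, adjusted p = 0.0357 by limma), but the call passed in 12 of 17 alternatives and was lost without any 1 of the 3 controls or without OFD1-depleted sample 3, with adjusted p up to 0.128, and without the filter (adjusted p = 0.115 by limma).

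H2AC6, H2BC4 and H3C10 had all OFD1-depleted samples above all controls without passing the test. H2AC6 (ENSG00000180573), an H2A gene, was at 2.40, 2.98 and 3.53 FPKM in the controls and at 3.85, 4.85 and 4.64 FPKM after depletion (log2 fold change 0.58, SE 0.188, adjusted p = 0.0568 by limma). H2BC4 (ENSG00000180596), its divergent H2B neighbour, was at 1.65, 1.38 and 1.40 FPKM in the controls and at 2.16, 2.29 and 2.86 FPKM after depletion (log2 fold change 0.68, SE 0.214, adjusted p = 0.0502 by limma). H3C10 (ENSG00000278828), the only H3 gene tested, was at 0.708, 0.816 and 1.06 FPKM in the controls and at 1.94, 2.0 and 1.23 FPKM after depletion (log2 fold change 0.91, SE 0.291, adjusted p = 0.0534 by limma). Its control mean of 0.861 FPKM was under the filter and its mean after depletion was 1.73 FPKM, so it was tested only because of the group in which it is high, and its change is given as a description. All 3 lay just over the threshold and passed it under 5, 7 and 7 of 17 alternatives, including scaling by the median of ratios (adjusted p = 0.0475, 0.0379 and 0.0415 by limma). The number of replication-dependent genes called higher therefore ranged from 1 to 5 over the alternatives, against 2 in the analysis used here.

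The other tested replication-dependent genes had groups that overlapped. H1-2 (ENSG00000187837), the linker histone H1.2, was at 15.9, 19.7 and 15.5 FPKM in the controls and at 16.7, 28.3 and 15.5 FPKM after depletion (log2 fold change 0.20, SE 0.211, adjusted p = 0.571 by limma). Only OFD1-depleted sample 2 was above the controls, and without it the log2 fold change was -0.07. H2AC18 and H2AC19 are near-identical H2A genes that share reads, and their summed level was 13.5, 11.1 and 11.3 FPKM in the controls and 12.2, 14.9 and 12.4 FPKM after depletion (log2 fold change 0.14, SE 0.142, adjusted p = 0.548 by limma). Listed singly, H2AC18 was at 6.81, 5.63 and 5.59 FPKM in the controls and at 6.12, 7.57 and 6.25 FPKM after depletion, and H2AC19 was within 0.21 FPKM of it in each sample. H2BC11 (ENSG00000124635) was at 1.09, 1.10 and 1.35 FPKM in the controls and at 0.614, 0.939 and 1.25 FPKM after depletion (log2 fold change -0.35, SE 0.315, adjusted p = 0.497 by limma).

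OFD1-depleted sample 2, high in H1-2, was also high in the summed level of a list of RNAs that have no poly(A) tail. The summed FPKM of RN7SK, RN7SL1, RN7SL2, RMRP, RPPH1 and RNU7-1 was 47.1, 11 and 13.7 in the controls and 10.7, 32.5 and 5.41 after depletion, so that control sample 1 and OFD1-depleted sample 2 stood above the rest. RN7SL1 and RN7SL2 made up most of these sums. RPPH1 in OFD1-depleted sample 2, at 0.0405 FPKM, was under all controls. That sample also had the largest FPKM total, 493510. Among the OFD1-depleted samples it was the highest for H2AJ and H1-10 and the lowest for H2AZ2. Whether the level of the RNAs without a tail had a part in that of any histone gene was not tested.

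The next most abundant replication-dependent genes were all under the filter, and none passed the fit without a filter. H2BC15 was at 0.656, 0.509 and 0.723 FPKM in the controls and at 1.37, 1.27 and 1.45 FPKM after depletion (log2 fold change 1.02, SE 0.241, adjusted p = 0.0856 by limma without a filter). H4C8 was at 0.496, 0.649 and 0.642 FPKM in the controls and at 1.36, 1.28 and 1.22 FPKM after depletion (log2 fold change 1.00, SE 0.237, adjusted p = 0.0864 by limma without a filter). Both lay clear of their controls, as did H3C6 at 0.299 to 0.448 FPKM in the controls and 0.535 to 0.814 FPKM after depletion. The H2A gene H2AC11 lay below its controls, at 1.19, 1.22 and 0.802 FPKM without and 0.785, 0.183 and 0.258 FPKM with depletion (log2 fold change -1.37, SE 0.495, adjusted p = 0.239 by limma without a filter).

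The rest of the 20 most abundant replication-dependent genes had overlapping groups. H2AC20 was at 1.14, 0.742 and 0.899 FPKM in the controls and at 0.313, 1.53 and 0.296 FPKM after depletion, with OFD1-depleted sample 2 again the highest. H2AC8, H2AC13 and H3C3 each varied within a group by more than the groups differed, on means of 0.611, 0.594 and 0.608 FPKM. H4C14 and H4C15, another near-identical pair, summed to 1.36, 1.30 and 0.971 FPKM in the controls and to 0.928, 0.874 and 1.06 FPKM after depletion (log2 fold change -0.30, SE 0.278, adjusted p = 0.506 by limma). The pair H3C14 and H3C15 had summed group means of 0.300 FPKM and 0.169 FPKM. For a gene model of 495 bases, 1 fragment was worth roughly 0.0458 to 0.0537 FPKM. At the class median of 0.124 FPKM a gene that short rests on a few fragments.

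Summed over all its genes, tested or not, the replication-dependent class stood higher and the variant class lower after depletion. The 66 replication-dependent genes summed to 87.5, 89.2 and 77.3 FPKM in the controls (84.7 ± 6.44, SD, n = 3) and to 112, 126 and 106 FPKM after depletion (115 ± 10.6), or 135% of control. H2BC12 made up 37.8% to 39.8% of this sum in the controls and 44.5% to 51.0% after depletion. Without it the groups overlapped and the sum was 113% of control. The replication-dependent genes under the filter summed to 14.8, 13.3 and 8.05 FPKM in the controls and to 11.5, 11.1 and 9.47 FPKM after depletion. Their sum was 88.8% of control, with groups that overlapped. The 12 variants summed to 1002, 1165 and 1019 FPKM in the controls (1062 ± 89.5) and to 744, 837 and 661 FPKM after depletion (748 ± 88.0), or 70.4% of control. Without H2AX the variant sum was 79.4% of control, still with groups that did not overlap. The replication-dependent share of all histone FPKM was 7.06% to 8.04% in the controls and 13% to 13.8% after depletion. The sums are described without a test.

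H2AX and H2BC12 had the smallest adjusted p of their classes. The ratio of H2AX to H2BC12, both in FPKM, was 4.24, 4.89 and 4.82 in the controls and 0.401, 0.533 and 0.432 after depletion, so that H2AX was the higher of the pair in all controls and the lower in all OFD1-depleted samples. A ratio within a sample does not depend on how the samples were scaled to each other. The pair was chosen by its values in these same samples. Ratios that separate the groups follow from that choice and are given as a description.

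How far a gene model runs past its stem-loop differed among the replication-dependent genes, and so did their levels. In the deposited table, the models of 43 of the 64 genes with a stem-loop ended within 100 bases of it, and those of 21 ran on for 212 to 29196 bases, so that they take in annotated transcripts that are not cut at the stem-loop. The longer models had a median level of 0.466 FPKM and 6 of 21 were tested (28.6%), against 0.0766 FPKM and 4 of 43 (9.30%) for the shorter ones. Of the longer models, 7 genes had all OFD1-depleted samples above all controls (H2AC6, H2BC4, H2BC15, H3C6, H3C10, H4C8 and H4C9) and 1 had all below (H2BC21). Of the shorter models, 1 gene was above (H2BC12) and 2 were below (H1-4 and H2BC17). Several of these genes were under the filter, and of all 28501 genes above 0 FPKM in any sample 8.39% had groups apart with higher and 12.7% with lower values after depletion.

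The median log2 fold change in the fit without a filter was 0.22 for the 19 longer models above 0 FPKM and -0.19 for the 33 shorter ones. Summed, the longer models stood at 15, 14.6 and 15 FPKM in the controls and at 19.9, 20.6 and 20.1 FPKM after depletion. All the shorter ones stood at 71.4, 73.4 and 61.6 FPKM in the controls and at 90.9, 106 and 85.5 FPKM after depletion. Both sums were higher in all OFD1-depleted samples than in all controls. H2BC12 and H1-2 were the most abundant of the shorter ones. Without them, the rest stood at 22.4, 19.6 and 15.3 FPKM in the controls and at 17.2, 21.2 and 16.5 FPKM after depletion. Those groups overlapped. The comparison of long and short models, which also names H1-4 and H2BC17, was made after the values were seen and is given as a description. FPKM does not show where in a model the fragments lie, so it was not tested which transcripts gave them. The model of H2AX also ran on, for 1044 bases past its stem-loop.

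The promoters of the classes were compared for known elements in RefSeq windows of 300 bases on GRCh38.p14, from 250 bases before to 50 after the start of transcription, which were found for 61 replication-dependent genes and 11 variants. Both strands were searched for CCAAT, the site of NF-Y, for TATAAA, for the octamer ATTTGCAT bound by OCT1, for TTTCGCGC or TTTGGCGC as E2F sites, and for TTTGAA, the CHR element of G2/M genes. CCAAT was in 85.2% of the replication-dependent promoters, 81.8% of the variant promoters and 35.7% of all 27305 promoters. The octamer was in 41.0%, 9.09% and 1.8%, and in the replication-dependent class it was found in 82.4% of H2B and 73.3% of H2A promoters and in no H1, H3 or H4 promoter. TATAAA was in 68.9%, 36.4% and 12%, the E2F sites were in 19.7%, 0.0% and 1.18%, and CHR was in 31.1%, 18.2% and 15.4%.

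The windows of H2BC12, H4C9, H2BC21 and H2AX are shown because these genes carry the main calls, rising, rising, falling and falling. They are written in the direction of transcription, with matches to any of the motifs on either strand in capitals, so that ATTGG stands for a CCAAT box on the other strand, TTTATA for a TATA box and TTCAAA for a CHR element.
H2BC12, chr6:27146806-27147105, minus strand: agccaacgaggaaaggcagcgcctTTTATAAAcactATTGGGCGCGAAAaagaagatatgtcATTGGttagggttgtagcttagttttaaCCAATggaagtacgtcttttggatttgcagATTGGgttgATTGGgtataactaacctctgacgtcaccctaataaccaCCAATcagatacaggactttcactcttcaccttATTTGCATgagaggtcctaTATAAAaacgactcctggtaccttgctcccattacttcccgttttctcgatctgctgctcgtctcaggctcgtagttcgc
H4C9, chr6:27139032-27139331, plus strand: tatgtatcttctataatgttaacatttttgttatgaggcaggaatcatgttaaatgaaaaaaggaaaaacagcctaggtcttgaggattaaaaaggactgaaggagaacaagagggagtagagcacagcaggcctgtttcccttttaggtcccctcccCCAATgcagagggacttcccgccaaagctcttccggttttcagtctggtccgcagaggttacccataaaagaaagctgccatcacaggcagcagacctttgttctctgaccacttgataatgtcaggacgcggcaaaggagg
H2BC21, chr1:149886633-149886932, minus strand: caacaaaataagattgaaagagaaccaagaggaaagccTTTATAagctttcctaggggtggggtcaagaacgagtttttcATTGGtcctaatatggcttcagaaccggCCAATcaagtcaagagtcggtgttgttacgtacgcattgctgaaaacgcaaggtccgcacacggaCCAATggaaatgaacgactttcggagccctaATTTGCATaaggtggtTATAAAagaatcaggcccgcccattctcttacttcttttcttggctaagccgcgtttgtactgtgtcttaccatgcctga
H2AX, chr11:119095416-119095715, minus strand: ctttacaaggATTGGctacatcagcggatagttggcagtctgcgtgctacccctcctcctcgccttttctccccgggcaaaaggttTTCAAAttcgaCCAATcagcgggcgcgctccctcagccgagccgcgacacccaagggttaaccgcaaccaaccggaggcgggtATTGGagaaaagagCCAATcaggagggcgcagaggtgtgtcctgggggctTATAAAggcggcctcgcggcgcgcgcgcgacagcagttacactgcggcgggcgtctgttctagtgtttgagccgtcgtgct
H2BC12, which rose, and H2BC21, which fell, both had the CCAAT box, the TATA box and the octamer, while an E2F match was found in H2BC12 and not in H2BC21. The other tested H2B genes, without a call, did not follow this split. An E2F match was found in H2BC11 (log2 fold change -0.35) and not in H2BC4 (log2 fold change 0.68). In H2BC12 the first capitals hold TATAAA on both strands, overlapping, and the next run is an ATTGG that directly abuts an E2F match on the other strand. H4C9 had a CCAAT match and no other. A CCAAT match, alone or with other motifs, was found in 3 of 12 H4 promoters (25.0%). H2AX had 4 CCAAT matches, 1 TATAAA and 1 CHR match. The windows of H2AC6 and H2BC4 shared 255 of their 300 bases on opposite strands, and the values of this divergent pair were both higher in all OFD1-depleted samples. A match is a description of these letters and not evidence that a factor binds there.

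The genes that form the 3′ end of replication-dependent histone mRNA or degrade it were given as a list of 16, all tested. Of these, 3 fell and none rose: SLBP, CASP8AP2 and ERI1, against the background of 11.9% called lower. The median log2 fold change was -0.25. SLBP, which binds the stem-loop and is itself made in S phase, was at 48.2, 52.2 and 42.9 FPKM in the controls and at 33.1, 32.9 and 34.0 FPKM after depletion (log2 fold change -0.51, SE 0.124, adjusted p = 0.0161 by limma). CASP8AP2 (FLASH), a partner of the U7 snRNP at the cleavage site, was at 2.15, 2.41 and 2.07 FPKM in the controls and at 1.11, 0.904 and 1.22 FPKM after depletion (log2 fold change -0.98, SE 0.230, adjusted p = 0.0139 by limma). Both had groups that did not overlap. ERI1, an exonuclease that trims the stem-loop, is named because it was the third call, after its values were seen (log2 fold change -0.77, SE 0.170, adjusted p = 0.0102 by limma). All 3 calls were lost when control sample 2 was left out, and those of SLBP and CASP8AP2 without control sample 1, with adjusted p up to 0.0825, which left 1 call without control sample 1 and none without control sample 2.

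NPAT, the coactivator of histone genes that works from histone locus bodies, was at 3.57, 3.48 and 3.09 FPKM in the controls and at 2.73, 1.94 and 2.88 FPKM after depletion, with groups apart but no call (log2 fold change -0.43, SE 0.197, adjusted p = 0.167 by limma). ZNF473, the zinc finger protein that joins SLBP to the U7 snRNP, was at 1.87 to 2.27 FPKM in the controls and 1.36 to 1.72 FPKM after depletion (adjusted p = 0.186 by limma). The U7 subunits LSM10 and LSM11 had overlapping groups, with log2 fold changes of 0.09 (SE 0.161) and -0.26 (SE 0.213).

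The histone chaperones, which carry new histones to DNA, were given as a list of 25, all tested, of which 10 fell and none rose. The groups did not overlap, with lower values after depletion, in 19 of the 25, and the median log2 fold change was -0.34. Over all genes tested, 11.9% were called lower and 22.3% had groups apart with lower values. Chaperones that place new H3 and H4 behind the replication fork were among those that fell. CHAF1A, the large subunit of CAF-1, went from 11.8, 12.9 and 12.7 FPKM to 4.74, 4.59 and 4.18 FPKM (log2 fold change -1.45, SE 0.133, adjusted p = 4.35e-05 by limma). CHAF1B, its partner, had a log2 fold change of -1.41 (SE 0.168, adjusted p = 2.34e-04 by limma). ASF1B, the H3-H4 chaperone of proliferating cells, went from 26.6, 26.8 and 25.7 FPKM to 10.7, 12.9 and 8.30 FPKM (log2 fold change -1.32, SE 0.161, adjusted p = 2.71e-04 by limma). Its paralog ASF1A did not pass, with a log2 fold change of -0.12 (SE 0.123, adjusted p = 0.540 by limma), and the difference between the paralogs was not tested. NASP, which holds soluble H3 and H4, fell by 0.77 on the log2 scale (SE 0.134, adjusted p = 0.00259 by limma).

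Of the chaperones of variants named here, HIRA and HJURP passed the test and DAXX and ANP32E did not, and all had negative log2 fold changes. Differences between them were not tested. HIRA, which deposits H3.3 outside S phase, fell from 8.89, 9.75 and 9.47 FPKM to 5.36, 4.83 and 4.5 FPKM (log2 fold change -0.92, SE 0.138, adjusted p = 0.00103 by limma), while DAXX, which deposits H3.3 in heterochromatin, had groups apart and lower without passing (log2 fold change -0.32, SE 0.127, adjusted p = 0.114 by limma). ANP32E, which removes H2A.Z, had overlapping groups (log2 fold change -0.22, SE 0.160). HJURP, the chaperone of centromeric CENP-A, fell from 19.8, 21.2 and 19.3 FPKM to 5.57, 4.89 and 5.0 FPKM (log2 fold change -1.94, SE 0.129, adjusted p = 1.03e-05 by limma). CENPA, the centromeric H3 that the name rule leaves out, went from 11.6, 15.3 and 11.8 FPKM to 4.87, 5.48 and 3.44 FPKM (log2 fold change -1.48, SE 0.190, adjusted p = 3.64e-04 by limma). The other calls of the list, named after their values were seen, were MCM2, TONSL, MMS22L and UBN1. The call of UBN1 (adjusted p = 0.0403 by limma) passed in 10 of 18 alternatives, with adjusted p up to 0.143 when a sample was left out and 0.148 without a filter.

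**Figure D2:**
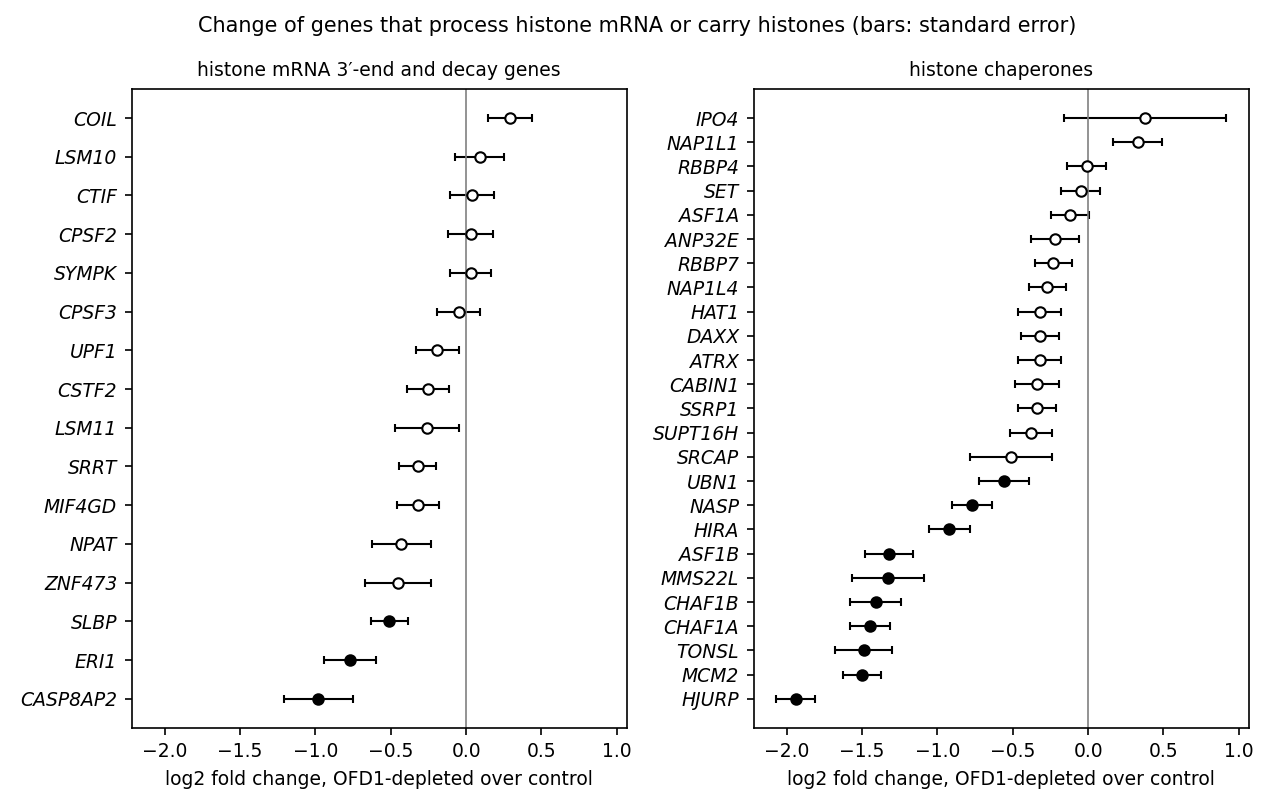
Log2 fold change, OFD1-depleted over control, of the 16 histone mRNA processing genes (left) and the 25 histone chaperones (right), with bars for the standard error and filled points for an adjusted p under 0.05. The filled points, 3 on the left and 10 on the right, all lie below 0, and HJURP lies lowest.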

How the data were processed

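The authors aligned paired-end reads to GRCh38 with HISAT2 2.0.5 and deposited an FPKM value per gene and sample from StringTie, as the methods and the submitters' processing notes say. The methods name a directional kit, while the version of StringTie, the strand setting of the counting and the selection of RNA are not given in the sources used here. Low FPKM values of single-exon genes gave a rough depth per sample, used in no test. Genes with a mean FPKM of 1 or more over the 6 samples (12025) were compared with limma 3.58.1 (R 4.3.3, trend on mean level) on log2(FPKM + 0.1), two-sided, with Benjamini-Hochberg adjustment. Fold changes on this scale understate the change of low genes. Calls are adjusted p under 0.05. The fit was tested on simulated data before use.

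Genes were matched to GENCODE 44 and RefSeq promoters by identifier or symbol. Histone members, gene lists and tests were chosen with earlier results of these data known. Named genes were OFD1, every variant, the 20 replication-dependent genes with the highest mean, any other called member, 6 processing genes, 9 chaperones and CENPA. The values of 1 variant under the filter are not reported here. Alternatives were other pseudocounts, filters, scalings and weights, a replicate block, protein-coding genes alone, H2AX moved to the other class, and each sample left out, and, added after seeing the data, tested members with 1 group mean under 1 FPKM left out. Of the tested members, 5 of 18 overlap another gene, all of them variants.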

Additional observations from a re-analysis of the deposited data

How the results depend on the processing

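The 53 results were recomputed under 20 other settings, giving 935 values, of which 825 kept their direction and their side of the threshold or moved by less than the replicate spread. H2AX, H2BC12, H4C9, H1-10, H2AZ1, CHAF1A, ASF1B, HJURP and CENPA kept their direction in each alternative that tested them. Low levels limit the replication-dependent class most, since 56 of its 66 genes were not tested. Unless named, the cause of a change was not tested.

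Replication-dependent genes called higher numbered 5 with array weights, median of ratios, quantile scaling and protein-coding genes alone, 4 without the trend and with a pseudocount of 1, and 1 with a filter at 5 FPKM, which tests fewer genes. Those called lower numbered 0 with a filter at 5 FPKM and without a filter, 2 with H2AX counted among them, and 0 to 1 when a sample was left out. Without a filter the median was -0.17 for the replication-dependent genes and -0.05 for the variants, whose calls lower numbered 2, and 3 to 5 when a sample was left out. With equal FPKM totals (TPM) the median of all genes moved from -0.032 to -0.176, the variant median was -0.64, and the replication-dependent sum was 122% of control. With quantile scaling the median of all genes was 0.045.

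Processing genes called lower numbered 5 with array weights and with TPM, 1 with a filter at 5 FPKM and without a filter, and 0 to 3 when a sample was left out, and 1 was called higher with quantile scaling. Their median was -0.05 with a filter at 5 FPKM, -0.13 with quantile scaling and -0.39 with TPM. Chaperones called lower numbered 16 with TPM, where their median was -0.49, and 1 was called higher with array weights. Leaving out a sample gave 0 to 1 called higher.

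Over all genes, 2263 were called lower and 1693 higher with array weights, 823 and 260 without a filter, 1093 higher with quantile scaling and 268 higher with TPM. Leaving out a sample gave 867 to 1741 lower, fewest without control sample 3, and 244 to 1077 higher, fewest without control sample 3 and most without OFD1-depleted sample 2.

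Signs turned only in genes that had no call: H2AC18 (-0.01 with array weights, -0.0020 with TPM), H2AC19 (-0.0089 and -0.0076), H3-3A (-0.06 with TPM), MACROH2A1 (0.0022 with median of ratios), H2AJ (-0.19 with array weights, -0.11 with TPM, -0.02 without mitochondrial genes in the total) and LSM10 (-0.05 with TPM). When a sample was left out, H1-2 ranged from -0.07 to 0.36, H2AJ from -0.28 to 0.33 and LSM10 from -0.06 to 0.22.

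The replicate numbers of the groups are shared in the labels. Same-numbered samples deviated together by a correlation of 0.0579, 0.0481 and 0.011. The mean was 0.039 for the same number and -0.0192 for different numbers. Of the 6 samples, 4 correlated best with their own number. These values cannot settle whether same-numbered samples were paired. A fit with the replicate block called 2296 genes against 2039, 1945 of them shared, and the replication-dependent median stayed at 0.39. Under the block H2AC6 reached an adjusted p of 0.0471 while H2BC4 and H3C10 were at 0.0665 and 0.0542 by limma.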
